A study of Mus musculus with 6 samples.

Results

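The transforming growth factor beta (TGF-beta) and bone morphogenetic protein (BMP) genes examined here are Tgfb1, Tgfb2, Tgfb3, Inhba, Bmp4, Bmp7, the BMP antagonist Grem1, the receptors Tgfbr1 and Tgfbr2, and the TGF-beta-induced gene Tgfbi. They were selected by symbol from the deposited count tables, and all 10 were found among the 24422 genes listed. RNA sequencing had been performed on whole kidneys of C57BL/6 mice at postnatal day 60, with 3 libraries per group and every mouse on an iron-sufficient diet (220 ppm iron). Controls are labelled wild type. The other group, titled TfR1KO;KspCre and called knockout here, has the genotype Tfr1f/f;KspCre, in which both alleles of the transferrin receptor gene (TfR1, gene symbol Tfrc) carry floxed exons and Cre is driven by the Ksp-cadherin promoter in epithelium of the distal nephron. The other cells of the kidney, including stroma, immune cells and vessels, are not targeted by this driver, and the libraries hold RNA of all of them. The comparison asks how transcripts of the pathway differ when the distal nephron lacks TfR1.

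TGF-beta ligands are secreted in a latent form that is tethered to the matrix. Once released, they bring together a type II receptor (Tgfbr2) and a type I receptor (Tgfbr1) at the cell surface, and the type I kinase then phosphorylates Smad proteins that carry the signal to the nucleus. BMPs use related receptors and a different set of Smads, and secreted antagonists such as gremlin (Grem1) bind BMPs and keep them from their receptors. In the kidney, TGF-beta is best known as a driver of myofibroblast activation and matrix deposition, and Bmp7 as a ligand required for nephron formation that is counted among the antifibrotic signals of the adult organ. The BMP branch also controls systemic iron, since Bmp6 from liver endothelium induces the iron hormone hepcidin.

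Total counts ranged from 11501053 to 21001341 per library, with the lowest in knockout 3. The libraries were named by their labels, because Tfrc gave no check of them: controls 1 to 3 held 2783, 2856 and 1032 counts of it and knockouts 1 to 3 held 4368, 1713 and 530, and gene counts pool the floxed exons with the rest of the transcript. Knockout 1 lay between the groups on the first principal component of log2 CPM (read counts scaled to a common library total, with TMM correction for the makeup of each library), at 9.67, with the controls at most at -53.2 and the other knockouts at least at 82.1. Control 2 held 52 counts of Xist and 1451 of the Y-linked gene Ddx3y, whereas every other library held at least 10458 of Xist and at most 4 of Ddx3y. Sex was not a label, and the study used males and females. With the Xist to Y-linked ratio as a covariate, no member was called, and 7 had an unadjusted p under 0.05 (edgeR). Other values without these libraries are given with the results below.

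The proximal promoters of the members are shown for the ligands Tgfb1 and Tgfb2, which are made as parallel isoforms, and for Grem1 and Inhba, whose transcripts were nearly absent from the controls. Each sequence is the 250 bases before a RefSeq start (windows from the GRCm38.p6 table, matched to NCBIM37, which is mm9), read 5′ to 3′ in the direction of the gene. Capitals mark matches on either strand to the GC box (GGGCGG), the TATA box (TATAAA) or the core of the Smad-bound CAGA box (CAGACA), and no matches overlapped.
Tgfb1, chr7:26471771-26472020, plus strand: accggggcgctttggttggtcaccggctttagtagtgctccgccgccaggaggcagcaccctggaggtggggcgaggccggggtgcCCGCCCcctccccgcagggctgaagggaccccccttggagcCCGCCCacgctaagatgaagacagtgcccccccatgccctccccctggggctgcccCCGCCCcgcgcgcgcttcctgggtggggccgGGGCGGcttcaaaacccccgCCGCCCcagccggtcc
Tgfb2, chr1:188529869-188530118, minus strand: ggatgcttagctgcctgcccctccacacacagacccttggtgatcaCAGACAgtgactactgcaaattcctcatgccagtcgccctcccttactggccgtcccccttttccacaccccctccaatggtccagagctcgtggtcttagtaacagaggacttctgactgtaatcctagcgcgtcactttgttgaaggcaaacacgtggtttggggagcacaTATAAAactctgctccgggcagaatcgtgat
Grem1, chr2:113598806-113599055, minus strand: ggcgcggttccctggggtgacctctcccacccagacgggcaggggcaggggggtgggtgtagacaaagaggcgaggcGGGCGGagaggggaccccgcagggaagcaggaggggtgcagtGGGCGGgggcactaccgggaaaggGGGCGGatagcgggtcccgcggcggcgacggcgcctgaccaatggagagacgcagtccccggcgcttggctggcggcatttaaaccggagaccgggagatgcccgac
Inhba, chr13:16103434-16103683, plus strand: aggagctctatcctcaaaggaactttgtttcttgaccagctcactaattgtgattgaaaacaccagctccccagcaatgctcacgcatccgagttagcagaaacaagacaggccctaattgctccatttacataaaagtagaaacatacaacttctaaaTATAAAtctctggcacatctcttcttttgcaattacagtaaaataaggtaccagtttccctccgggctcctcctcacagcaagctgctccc
The Tgfb1 window held 5 GC boxes and no TATA box, and the Grem1 window 3 GC boxes and no TATA box. The windows of Tgfb2 and Inhba each held 1 TATA box and no GC box, and that of Tgfb2 also held 1 CAGA core. Their GC contents were 75.2% (Tgfb1), 72% (Grem1), 53.6% (Tgfb2) and 43.2% (Inhba). Of the 32851 windows of this length in the table, 32.7% held a GC box, 12.4% a TATA box and 17.1% a CAGA core. The table held 9 windows for 8 of the members (all but Tgfb3 and Bmp7), of which 5 held a GC box, 2 a TATA box and 2 a CAGA core. The palindromic Smad binding element GTCTAGAC was in none of the 9 and in 0.167% of all windows, and the AP-1 site TGANTCA in none of the 9 and in 6.75%.

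Tgfb1, Tgfb3, Tgfbr2, Tgfbi and Grem1 rose in knockout kidneys, Tgfb2 and Tgfbr1 had positive fold changes that did not pass the test, and the BMP ligands Bmp4 and Bmp7 had negative ones that did not pass. No member was called lower. Of the 10 members, 9 passed the filter on low counts and were tested, and 5 of these 9 were called higher with adjusted p below 0.05 by the quasi-likelihood test of edgeR. Over the 15171 genes tested, 10.6% were called higher, 6.64% lower and 17.2% in either direction (1604 higher and 1008 lower). Scaling by library size alone, in place of TMM, gave 2979 higher and 661 lower. In whole tissue, more cells of a type and more RNA per cell cannot be told apart. Grem1 reached the filter through the knockouts only (0 control and 3 knockout libraries were at the minimum of 0.532 CPM), so it could enter the test only by being higher there. The other 8 tested members reached it in all 6 libraries. The ranges of the 3 control and 3 knockout libraries did not overlap for Tgfb1, Tgfb3, Tgfbr1, Tgfbr2, Tgfbi and Grem1 (higher) and for Bmp7 (lower), and the same held for the untested Inhba (higher). Such separation was common, as it held for 46.0% of the tested genes, with the knockouts higher for 23.8% and lower for 22.2%. An unadjusted p under 0.05 was reached by 8 of the 9 tested members and by 38.6% of all tested genes (edgeR).

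**Figure D1:**
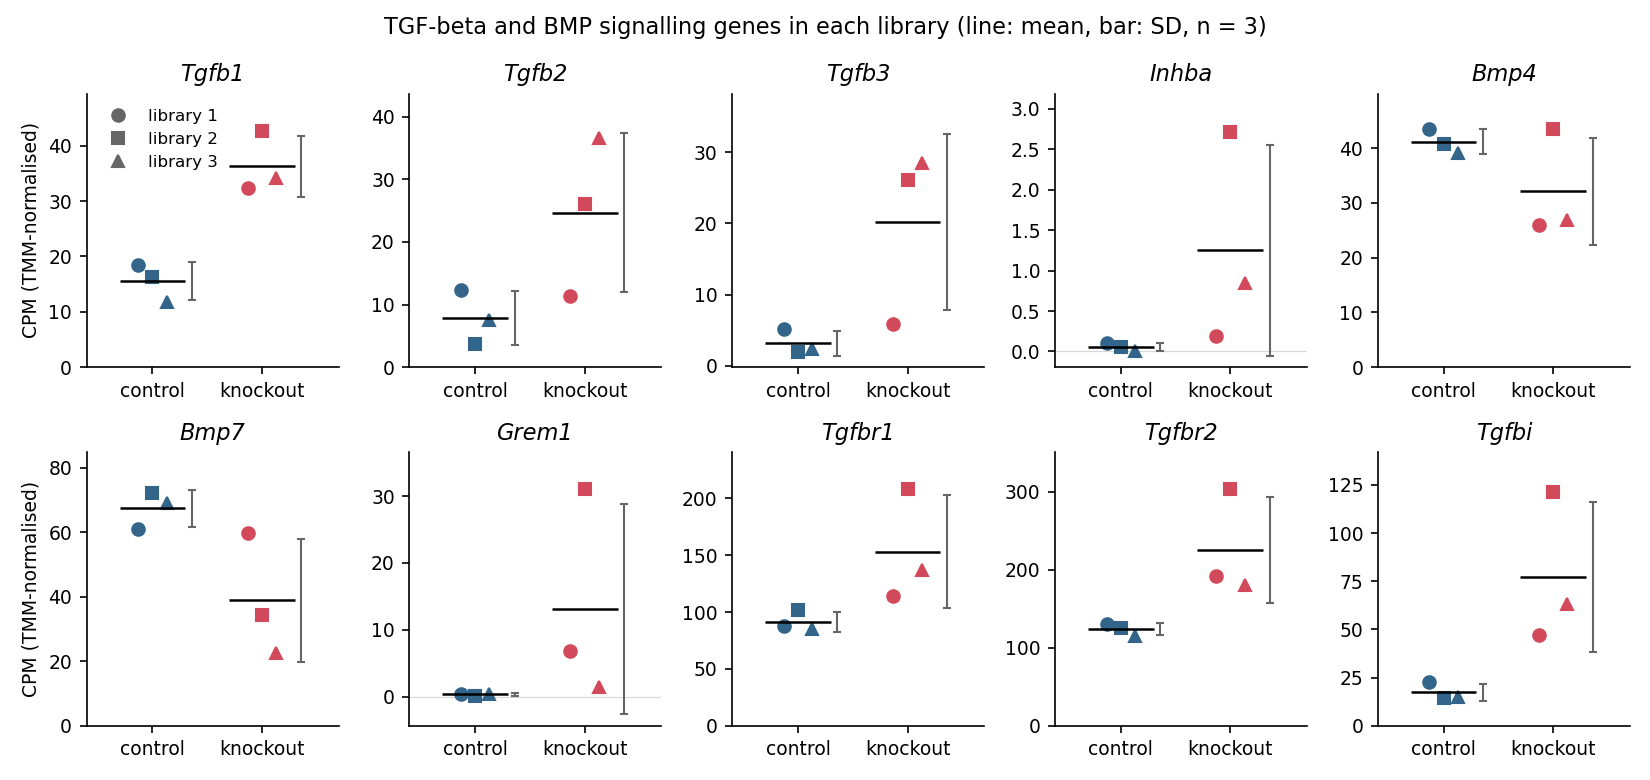
Level of each of the 10 genes in every library, in TMM-normalised CPM (linear axes). Points are libraries with the replicate number as symbol, lines are group means and side bars are SDs (n = 3). Tgfb1, Tgfbr2 and Tgfbi lay above the controls in all 3 knockouts, Grem1 differed widely among knockouts (1.38 to 31.0 CPM), and Bmp7 was lowest in knockout 3 (22.5 CPM).

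These calls lay near the threshold and were lost in most fits that left out 1 library, while every tested member kept its sign. The count of members called was 0 of the tested members without any 1 control, without knockout 2 and without knockout 3 (edgeR; 0.00% of all tested genes were called without a control, 0.474% without knockout 2 and 0.0130% without knockout 3), where between 6 and 8 members still had an unadjusted p under 0.05. Without knockout 1 it was 9 of 10, with 8 higher and Bmp7 lower, while 34.4% of all tested genes were called. The 8 include Grem1 and Inhba, which reached the filter's minimum in no control library. DESeq2's Wald test called 7 of 9 (32.2% of all genes) by adding Tgfb2 and Tgfbr1, and limma-voom called 2 of 9, Tgfb1 and Tgfbi (13.4% of all genes). With library size alone, edgeR called 6 of 9 (24.0% of all genes).

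Tgfb1 (ENSMUSG00000002603; chromosome 7, 26472021 to 26490096, plus strand, mm9) encodes the TGF-beta isoform most studied in fibrosis. Controls 1 to 3 had 18.4, 16.3 and 11.7 CPM, and knockouts 1 to 3 had 32.3, 42.6 and 34.1 CPM. Every knockout lay above every control, and the knockouts varied less, relative to their mean, than for the other members that rose. The log2 fold change was 1.23 (SE 0.21), a 2.34-fold rise with a 95% interval of 0.72 to 1.73 on the log2 scale (edgeR, adjusted p 0.0286). Without any 1 library it stayed between 1.06 and 1.36.

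Tgfb2 (ENSMUSG00000039239; chromosome 1, 188447065 to 188529871, minus strand) encodes the isoform that binds Tgfbr2 weakly unless the co-receptor betaglycan is present. Its levels were 12.4, 3.70 and 7.56 CPM among controls and 11.4, 26.0 and 36.6 CPM among knockouts. The groups overlapped, because knockout 1 lay below control 1. The log2 fold change was 1.64 (SE 0.55) and did not pass (edgeR, adjusted p 0.0753), with a 95% interval of 0.34 to 2.94. Without knockout 1 it was 1.98 and was called (edgeR, adjusted p 0.0220), and without knockout 3 it was 1.24 and was not called.

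Tgfb3 (ENSMUSG00000021253; chromosome 12, 87397694 to 87419991, minus strand) had the largest fold change of the TGF-beta isoforms. It was at 5.22, 1.94 and 2.34 CPM among controls and at 5.93, 26.2 and 28.5 CPM among knockouts. Knockout 1 lay only just above control 1, whereas the other knockouts were far above all controls. It rose by 2.66 on the log2 scale (SE 0.67; edgeR, adjusted p 0.0416), and the 95% interval reached from 1.08 to 4.24. Under limma-voom it was 2.39 and was not called (adjusted p 0.102).

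Inhba (ENSMUSG00000041324; chromosome 13, 16103684 to 16119044, plus strand) encodes the beta A subunit that forms activin A, a ligand of the TGF-beta branch. The controls held 2, 1 and 0 raw counts of it, against 4, 54 and 11 for the knockouts. Knockouts 2 and 3 stood above all controls and knockout 1 was close to them. With 3 counts in the controls together and 69 in the knockouts, the ratio of normalised levels was 23.2 (exact 95% interval 7.61 to 115.1, counting error only, without the spread between animals). Knockout 2 held most of these counts, and the ratio was 8.04 without it (exact 95% interval 2.28 to 43.3) and 35.3 without knockout 1, values computed after the data were seen. The gene did not pass the filter. With no filter its log2 fold change was 4.33 (SE 1.18) and it was not called (edgeR, adjusted p 0.0512). Without knockout 1 it passed the filter, through the knockouts only, so that it could enter the test only by being higher there, and its log2 fold change was 4.85 (edgeR, adjusted p 0.00972).

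Bmp4 (ENSMUSG00000021835; chromosome 14, 47003195 to 47010344, minus strand), a ligand that patterns ureter and stroma during development, was at 43.5, 40.8 and 39.1 CPM among controls and at 26.0, 43.4 and 26.8 CPM among knockouts. Knockouts 1 and 3 were below all controls and knockout 2 was level with them. The log2 fold change of -0.36 (SE 0.22) did not pass (edgeR, adjusted p 0.265), with a 95% interval of -0.88 to 0.16, and it was -0.64 without knockout 2 (edgeR, adjusted p 0.0690). An annotated gene on the other strand, Gm15217, shares 89 exon bases with it, and the strand setting of the counting was not given in the sources used here.

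Bmp7 (ENSMUSG00000008999; chromosome 2, 172693513 to 172765822, minus strand) was at 61.0, 72.0 and 69.2 CPM among controls and at 59.7, 34.3 and 22.5 CPM among knockouts. All knockouts lay below the controls, although knockout 1 was only just under the lowest of them. The log2 fold change was -0.79 (SE 0.33), with a 95% interval of -1.58 to -0.01, and it did not pass (edgeR, adjusted p 0.127). Without knockout 1 it was -1.25 and was called lower (edgeR, adjusted p 0.00821), and without knockout 3 it was -0.52 (edgeR, adjusted p 0.235). DESeq2's Wald test over all 6 libraries gave -0.82 and an adjusted p of 0.0735.

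Grem1 (ENSMUSG00000074934; chromosome 2, 113586321 to 113598803, minus strand) encodes gremlin, which binds BMP ligands and is known in kidney development as the antagonist that permits ureteric branching. The controls held 9, 2 and 7 raw counts of it, against 140, 618 and 18 for the knockouts, or 0.447, 0.117 and 0.420 CPM against 6.87, 31.0 and 1.38 CPM. Even the lowest knockout, number 3, was above the highest control, but the knockouts were spread widely, with knockout 2 highest. At 5.28 (SE 1.22; edgeR, adjusted p 0.0364) its log2 fold change was the largest of the members, and its 95% interval was as wide as 2.39 to 8.16. It was 3.63 without knockout 2 and was not called there (edgeR, adjusted p 0.0794), nor was it called by limma-voom (4.60, adjusted p 0.0972).

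Tgfbr1 (ENSMUSG00000007613; chromosome 4, 47366094 to 47427803, plus strand), the type I receptor kinase, was at 87.4, 101.7 and 84.9 CPM among controls and at 113.8, 208.7 and 136.9 CPM among knockouts. The groups did not overlap, and the log2 fold change was 0.75 (SE 0.24; edgeR, adjusted p 0.0701), which did not pass. Without knockout 1 it was 0.91 and was called (edgeR, adjusted p 0.0197), and without knockout 2 it was 0.46 (edgeR, adjusted p 0.138). Tgfbr2 (ENSMUSG00000032440; chromosome 9, 115993415 to 116084383, minus strand), the type II receptor that binds the ligand, was at 130.7, 125.7 and 115.4 CPM among controls and at 192.4, 303.8 and 179.8 CPM among knockouts. Its log2 fold change, 0.86 (SE 0.23), passed narrowly (edgeR, adjusted p 0.0462). For both receptors knockout 2 was the highest library by a wide margin. With no filter Tgfbr2 was at an adjusted p of 0.0509 and under limma-voom at 0.0513, so its call turned on small changes of the processing.

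Tgfbi (ENSMUSG00000035493; chromosome 13, 56710920 to 56740923, plus strand) encodes a secreted matrix protein named for its induction by TGF-beta, and it is also made in quantity by macrophages. It was at 22.5, 14.4 and 14.8 CPM among controls and at 47.2, 121.4 and 62.9 CPM among knockouts. Each knockout held more than every control, with knockout 2 highest. It rose by 2.16 on the log2 scale (SE 0.38), or 4.48-fold (edgeR, adjusted p 0.0290), and it remained a call under limma-voom (adjusted p 0.0400).

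**Figure D2:**
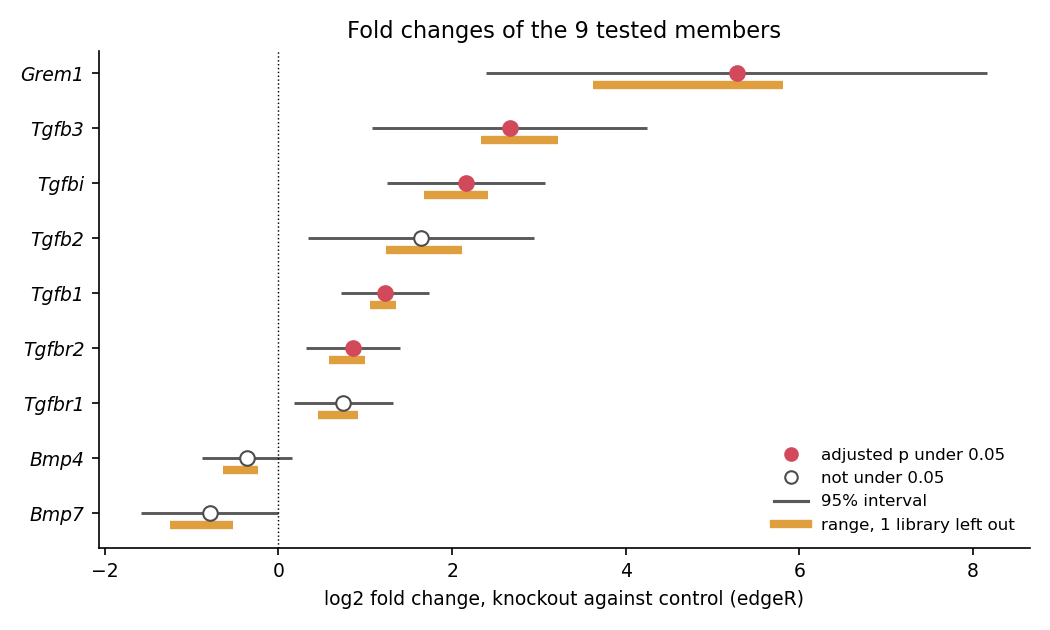
Log2 fold change of the 9 tested members, knockout against control (edgeR), with the 95% interval (grey) and the range over the 6 fits that each left out 1 library (orange). Filled points passed an adjusted p of 0.05. Signs did not change in any of these fits, and Grem1 had the widest interval (2.39 to 8.16).

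Set per length of transcript, so that genes can be compared, the members formed tiers in control kidneys. The BMP ligands and the receptors were highest, with Bmp4 at 18.5 ± 1.01, Bmp7 at 16.8 ± 1.41, Tgfbr2 at 15.3 ± 0.964 and Tgfbr1 at 14.0 ± 1.39 CPM per kilobase (SD, n = 3 each), and each neighbouring pair in this order overlapped. Tgfb1 (6.05 ± 1.35) and Tgfbi (5.81 ± 1.53) followed and overlapped each other, then Tgfb2 (1.63 ± 0.898) and Tgfb3 (0.935 ± 0.529), and last Grem1 (0.0791 ± 0.0441) and Inhba (0.0266 ± 0.0252). The libraries of 1 tier did not overlap with those of the next where Tgfbr1 met Tgfb1, Tgfbi met Tgfb2 and Tgfb3 met Grem1. In knockouts the order by mean was Tgfbr2 (27.9 ± 8.44), Tgfbi (26.0 ± 13.2), Tgfbr1 (23.4 ± 7.57), Bmp4 (14.4 ± 4.42), Tgfb1 (14.2 ± 2.15), Bmp7 (9.66 ± 4.73), Tgfb3 (5.97 ± 3.67), Tgfb2 (5.10 ± 2.61), Grem1 (3.15 ± 3.80) and Inhba (0.631 ± 0.659 CPM per kilobase, SD, n = 3 each). All neighbours in that order overlapped. The summed level of the TGF-beta isoforms was 8.62 ± 2.37 CPM per kilobase in controls and 25.3 ± 7.39 in knockouts (SD, n = 3 each). Tgfb1 held 63.8%, 82.7% and 67.0% of that sum among controls 1 to 3, against 75.4%, 55.9% and 45.5% for knockouts 1 to 3. Tgfb3 held 13.6%, 7.42% and 10.1% against 10.5%, 26.0% and 28.7%. Knockout 1 lay within the control range for every isoform's share, and knockouts 2 and 3 had a larger share of Tgfb3.

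Ratios of counts within a library do not depend on how libraries are scaled, and 5 were compared between groups. With 3 libraries against 3, the exact permutation test cannot give a two-sided p under 0.1. The log2 ratio of Grem1 to Bmp7, antagonist to ligand, was -7.01, -8.94 and -7.26 in controls and -3.12, -0.15 and -3.99 in knockouts. The groups did not overlap, with a difference of 5.32 (4.19 without knockout 2), and p was at the smallest value of 0.1 (exact permutation test, two-sided, 0.25 adjusted over the 5 ratios). In knockout 2 the counts of Grem1 came close to those of Bmp7. The log2 ratio of Tgfb1 to Bmp7 was -1.73, -2.14 and -2.56 in controls and -0.89, 0.31 and 0.60 in knockouts, a difference of 2.15 with the same exact permutation p of 0.1 (0.25 adjusted). Knockouts 2 and 3 thus held more counts of Tgfb1 than of Bmp7, and no control did. In every knockout Grem1 and Tgfb1 lay above the control range and Bmp7 below it. The separation of both ratios, and their p of 0.1, followed from this and adds no further support. The other ratios overlapped between groups. Tgfb2 to Tgfb1 differed by 0.41 (exact permutation p 0.7), Tgfb3 to Tgfb1 by 1.26 (exact permutation p 0.3) and Tgfbr1 to Tgfbr2 by -0.12 (exact permutation p 0.5). The difference for Tgfb3 to Tgfb1 was 1.91 without knockout 1, the library by which the groups overlapped, and 0.82 without knockout 3.

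**Figure D3:**
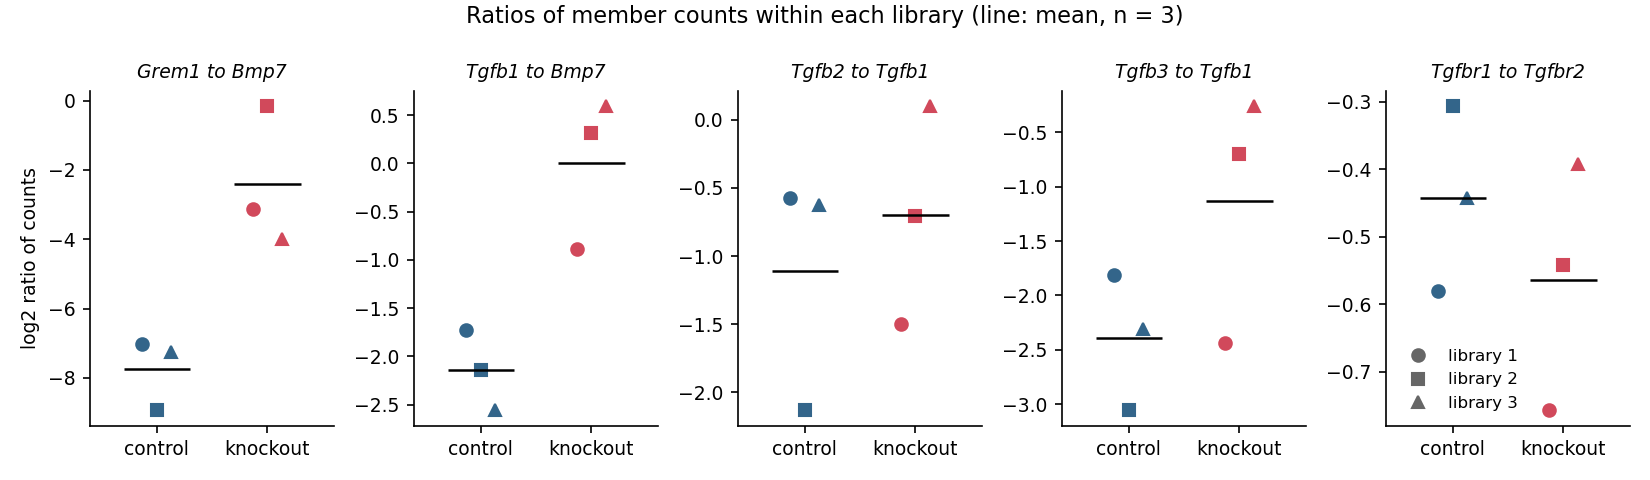
Log2 ratio of raw counts (0.5 added to each) between member genes within each library, with the replicate number as symbol and lines at the group means (n = 3). Grem1 to Bmp7 and Tgfb1 to Bmp7 separate the groups, with differences of 5.32 and 2.15 on the log2 scale, and the other ratios overlap. Both separations follow from the ranges of Grem1, Tgfb1 and Bmp7 themselves.

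Markers of other cell types moved with the members, and the part of cell makeup in the members' values was not tested. Of the fibroblast and myofibroblast markers, 4 of 8 were called higher, and their summed level was 359 to 679 CPM among controls against 1050, 4054 and 3883 CPM among knockouts 1 to 3. Macrophage markers were called higher for 8 of 9, with sums of 193 to 221 CPM among controls and 620, 2206 and 854 CPM among knockouts. T cell markers were called higher for 4 of 6 (4.03 to 6.90 against 15.2 to 50.9 CPM). Knockout 2, the library highest in Tgfb1, Tgfbr1, Tgfbr2, Tgfbi, Inhba and Grem1, was thus also highest in fibroblast and macrophage markers, while Tgfb2 and Tgfb3 were highest in knockout 3. Lists of proximal tubule, thick ascending limb, distal convoluted tubule and collecting duct had negative medians (-2.14, -1.46, -0.90 and -0.15). Proximal tubule markers were called lower for 7 of 8, with sums of 10227 to 13601 CPM among controls and 1707 to 5282 CPM among knockouts. The thick ascending limb list had 0 of 5 called. It was at 3977 to 9703 CPM among controls and 6195, 866 and 1181 CPM among knockouts 1 to 3. The distal convoluted tubule list had 1 of 4 called, lower (1939 to 3054 against 2279, 1247 and 152 CPM). For the collecting duct list 0 of 7 were called (987 to 1368 against 1581, 844 and 587 CPM). Knockout 1 thus lay within the control range for thick ascending limb and distal convoluted tubule, and above it for collecting duct. Knockouts 2 and 3 lay below it for all of these. Podocyte markers were called higher for 2 of 6 (541 to 674 against 679 to 976 CPM). Endothelial markers had 0 of 6 called (345 to 702 against 617 to 725 CPM). All markers of these lists that were in the table had counts in every library.

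The pathway as a whole was read by role. Of 101 listed genes 86 were tested, and 22 were called higher and 1 lower, beside 10.6% higher and 6.64% lower over all genes tested. In fits that left out 1 library, 0 pathway genes were called without any 1 control or without knockout 3, 1 without knockout 2 and 43 without knockout 1 (edgeR), and in the fits with 0 calls between 33 and 42 had an unadjusted p under 0.05 and the median log2 fold change was 0.52 to 0.80, against 0.66 with all libraries. Leaving out the members, the numbers were 17 higher and 1 lower of 77, with a median log2 fold change of 0.63 against 0.02 over all genes tested. With the members counted in, TGF-beta and activin ligands had 4 of 8 called higher and a median of 1.56, and TGF-beta targets had 5 of 12 and a median of 1.39. The ligands tested were Tgfb1, Tgfb2, Tgfb3, Inhbb, Inha, Lefty1, Gdf11 and Gdf15, so that list is broader than TGF-beta and activin. Genes of latency and activation had 4 of 14 and a median of 1.05, and receptors had 2 of 11 and a median of 0.46. The medians were close to that of all genes for secreted antagonists (0.06, with 3 called higher and 1 lower of 14) and negative for BMP and GDF ligands (-0.36, with 1 of 9 called higher). BMP targets had 1 of 8 called higher and a median of 0.33, Smad genes 1 of 8 and 0.25, and co-receptors 1 of 6 and 0.52.

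**Figure D4:**
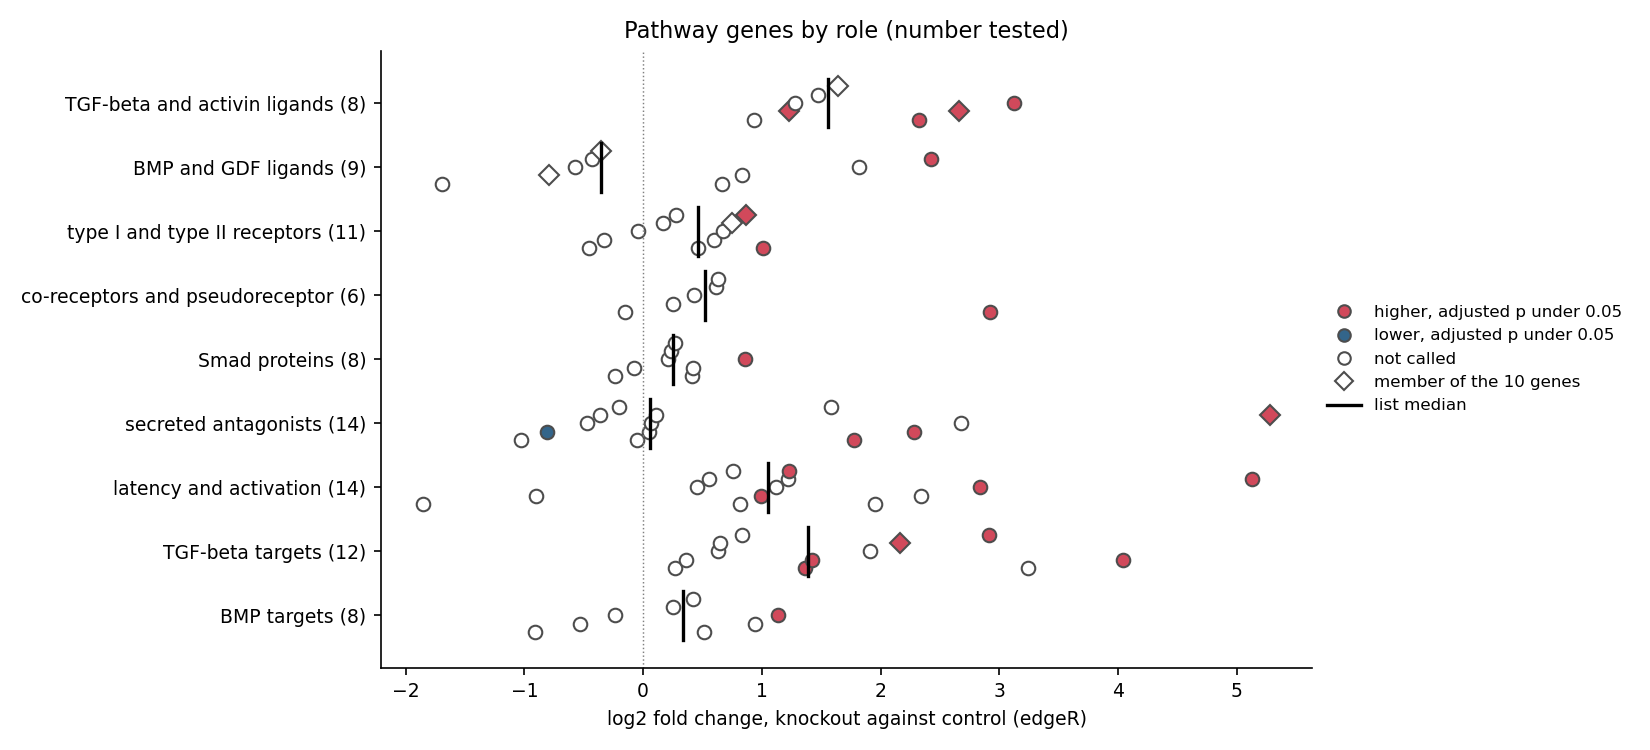
Log2 fold change of each tested pathway gene, knockout against control (edgeR), by role, with the number tested in brackets. Filled points passed an adjusted p of 0.05, diamonds are members of the 10 genes and black bars are list medians. The medians run from 1.56 for TGF-beta and activin ligands, a list that also holds Inha, Lefty1, Gdf11 and Gdf15, to -0.36 for BMP and GDF ligands.

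Among the other ligands, Gdf15, a stress-induced member of the superfamily, rose from a mean of 4.98 ± 1.89 to 43.3 ± 7.52 CPM (SD, n = 3 in both groups), or by 3.12 on the log2 scale (SE 0.33; edgeR, adjusted p 0.0271), and was at least at 35.4 CPM in every knockout. Inhbb, the beta B subunit of activin, rose by 2.32 on the log2 scale (SE 0.50; edgeR, adjusted p 0.0326). It was at 11.6, 16.7 and 4.36 CPM in knockouts 1 to 3, and it was not called by limma-voom (adjusted p 0.0513). Bmp3, an atypical ligand that opposes other BMPs, rose by 2.42 (SE 0.47; edgeR, adjusted p 0.0305), from 8.21 ± 2.52 to 44.1 ± 26.1 CPM. Bmp6, the ligand that governs hepcidin in the liver, was at 55.2 ± 21.8 CPM among controls and 40.9 ± 4.97 CPM among knockouts (SD, n = 3 each), and its value of -0.43 on the log2 scale (SE 0.28) did not pass (edgeR, adjusted p 0.287) and was -0.07 without control 3. Hepcidin itself (Hamp) was too low to test.

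Of the receptors, the endothelial type I receptor Acvrl1 rose by 1.01 on the log2 scale (SE 0.23; edgeR, adjusted p 0.0355). The abundant BMP receptors Bmpr2 (0.17, SE 0.23) and Bmpr1a (0.27, SE 0.19) did not pass (edgeR, adjusted p 0.625 and 0.332). Cd109, a membrane-anchored co-receptor that restrains TGF-beta signalling, held 3.93, 2.41 and 2.34 CPM among controls and 11.9, 26.2 and 27.8 CPM among knockouts, and it rose by 2.92 on the log2 scale (SE 0.41; edgeR, adjusted p 0.0271). Eng (0.43, SE 0.20) and Tgfbr3 (-0.15, SE 0.24), which encodes betaglycan, did not pass. Within the Smad genes Smad1, of the BMP branch, rose by 0.85 on the log2 scale (SE 0.17; edgeR, adjusted p 0.0319), and Smad5 (0.23) and the shared partner Smad4 (0.21) did not pass.

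Of the secreted antagonists most did not pass. Fstl1, a follistatin-like protein of stroma, rose from a mean of 61.9 ± 23.1 to 300.3 ± 163.9 CPM and Nbl1, a relative of gremlin, from 29.0 ± 8.92 to 99.5 ± 32.9 CPM (SD, n = 3 each), with log2 fold changes of 2.28 (SE 0.50; edgeR, adjusted p 0.0339) and 1.78 (SE 0.32; edgeR, adjusted p 0.0291). Kcp, a kielin/chordin-like protein that enhances BMP signalling despite its place in this list, was the 1 pathway gene called lower, at 20.1 ± 3.16 CPM among controls and 11.5 ± 2.02 CPM among knockouts (SD, n = 3 each; log2 fold change -0.81, SE 0.21; edgeR, adjusted p 0.0458). It was not called with upper quartile scaling (edgeR, adjusted p 0.0573), with library size alone (edgeR, adjusted p 0.0986) or by limma-voom (adjusted p 0.0513), and no pathway gene was called lower there. Twsg1, the highest of the list in CPM averaged over all libraries, did not pass, at 0.11 (SE 0.26) on the log2 scale.

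Of the genes of latency and activation, 4 of 14 rose. Ltbp2, a matrix protein of the latent TGF-beta binding protein family by name, held at most 2.54 CPM among controls. Among knockouts it held 19.7, 85.8 and 65.1 CPM, and it rose by 5.13 on the log2 scale (SE 0.66; edgeR, adjusted p 0.0271). Whether its protein holds TGF-beta was not tested. Fbn1, the fibrillin to which latent complexes attach, rose by 2.84 (SE 0.73) and Lrrc32, a cell-surface anchor of latent TGF-beta, by 1.23 (SE 0.33) on the log2 scale (edgeR, adjusted p 0.0437 and 0.0475). For Fbn1 knockout 1 was nearly level with control 1 (45.1 against 43.6 CPM), and knockouts 2 and 3 were at 237.6 and 321.7 CPM. Lrrc32 was at 37.9, 59.5 and 96.5 CPM in knockouts 1 to 3, against at most 30.8 CPM among controls. Bgn (1.95, SE 0.56; edgeR, adjusted p 0.0544) and Itgav (0.46, SE 0.16; edgeR, adjusted p 0.0896) did not pass. Ltbp3, of the same family as Ltbp2, rose by 0.99 (SE 0.14; edgeR, adjusted p 0.0271). The integrin subunits Itgb8 (-1.85, SE 0.53; edgeR, adjusted p 0.0543) and Itgb6 (-0.90, SE 0.34; edgeR, adjusted p 0.0994), whose integrins release TGF-beta from latency, did not pass. Among the targets, Tagln, a contractile gene of myofibroblasts and smooth muscle, rose by 2.91 (SE 0.69) and Pmepa1, a feedback inhibitor, by 1.42 (SE 0.27) on the log2 scale (edgeR, adjusted p 0.0378 and 0.0303). Tagln was spread widely, at 84.1, 360.7 and 664.8 CPM in knockouts 1 to 3, against at most 61.6 CPM among controls. Ctgf had a log2 fold change of 1.91 (SE 0.60) and did not pass (edgeR, adjusted p 0.0669). Knockout 2 stood far above the other libraries for both Ctgf and Bgn, and without it their log2 fold changes were 1.03 and 1.02. Of the BMP targets, Atoh8 rose by 1.14 (SE 0.28; edgeR, adjusted p 0.0403), and Id2 (-0.53, SE 0.25) and Id3 (0.94, SE 0.28) did not pass (edgeR, adjusted p 0.164 and 0.0570).

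The genes closest to a member in pattern were found by the root mean square difference in centred log2 CPM over the 6 libraries, among 11337 others at an average log2 CPM of at least 3. For Tgfb1 they were Stk10 (0.0684), Mcm3 (0.0883) and St6gal1 (0.0912), for Tgfbr2 Nxn (0.0890), Srgap2 (0.0930) and Psd3 (0.108), and for Bmp7 Osgin1 (0.0876), Ghitm (0.0934) and Bola3 (0.101). All points share the same 6 libraries, and the distances are descriptions.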

How the data were processed

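Poly-A RNA of 6 whole mouse kidneys, 3 control and 3 TfR1KO;KspCre, was sequenced as single-end reads. The authors deposited unnormalized read counts for each gene (1 table for controls, 1 for knockouts). To make them, they trimmed reads with Trimmomatic, aligned them to mm9 with TopHat2 2.0.11 after CASAVA 1.8.2, kept uniquely mapped reads and counted them with HTSeq. Gene annotation and strand setting are not given in the sources used here, so genes that overlap others are uncertain. Among those named, these are Bmp4, Bmp6, Acvrl1, Bmpr1a, Eng, Kcp, Ltbp2, Ltbp3, Fbn1, Itgav, Tagln and Ctgf.

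Counts were analysed with edgeR 4.0.16 in R 4.3.3. The filter (filterByExpr, minimum count 10, minimum total 15) left 15171 of 24422 genes. TMM scaling, the quasi-likelihood test in its legacy version and Benjamini-Hochberg adjustment over all tested genes followed. The SE is the log2 fold change divided by the square root of F. CPM are TMM-normalised, and levels per kilobase use the union of exons in GENCODE M1 (mm9). Library-level log2 CPM used a prior count of 2. Ratios were tested by exact permutation (scipy 1.17.1). Alternatives used DESeq2 1.42.0 and limma 3.58.1. The scripts were tested on simulated counts. The check on false calls there covered edgeR and limma-voom but not DESeq2.

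Replicates are described as biological, and each library counted once. Any pair of them differed well beyond sampling noise (chi-square over degrees of freedom 55.9 to 131.6), which does not by itself show that they are independent. Low totals widen the errors of Inhba (72 counts over all libraries) and Grem1 (794) most. All 10 members were described. Other pathway genes were named by rule: up to 3 called genes per direction and the 2 highest in mean CPM for each role list. A gene that this rule would name is not reported here. Hamp, Ltbp3, Itgb6 and Itgb8 were named in addition, after their values were seen. The members, lists and tests were chosen with earlier results of these data known.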

Additional observations from a re-analysis of the deposited data

How the results depend on the processing

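The number of genes called, 2612 of 15171, was 4882 with DESeq2's Wald test, 5034 at an adjusted p under 0.10, 0 with the Xist to Y-linked ratio as covariate and between 0 and 5332 when 1 library was left out. Of the members, 5 were called, 2 with limma-voom, 0 with the covariate and between 0 and 9 when 1 library was left out. Of the pathway genes, 23 were called, 36 with library size alone, 40 with DESeq2's Wald test, 15 with limma-voom, 41 at an adjusted p under 0.10, 0 with the covariate and between 0 and 43 when 1 library was left out. Where the covariate gave 0 calls, 4221 genes and 7 of the members had an unadjusted p under 0.05 (edgeR). The cause was not tested. Scaling by library size alone shifted the all-gene median by 0.27 (log2).

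With the replicate number as a block there were 0 calls over all genes, among the members and among the pathway genes, with 5432 genes, 7 members and 39 pathway genes at an unadjusted p under 0.05 (edgeR). The deviations of same-numbered libraries correlated at -0.13, 0.01 and 0.21, which gives no pairing, and the block left the differences in the 5 ratios as they were by construction.

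All 9 tested members kept their sign in every alternative in which they were tested. Among the other named genes, Tgfbr3 turned to 0.12 with library size alone and ranged from -0.36 to 0.0685 when 1 library was left out, Bmpr2 ranged from -0.0525 to 0.29 and Twsg1 from -0.11 to 0.35. The log2 ratio of Tgfb2 to Tgfb1 ranged from -0.10 (without control 2) to 0.81, Grem1 to Bmp7 from 4.19 (without knockout 2) to 6.11 and Tgfb3 to Tgfb1 from 0.82 (without knockout 3) to 1.91 (without knockout 1), and the others kept their sign. Grem1 had no value with at least 10 counts in every library. Depth limits Inhba, whose controls held 3 counts in all.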
